A study of Oryza sativa with 8 samples.

Results

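The genes described here are the phenylpropanoid, flavonoid and laccase genes of rice, 125 of the 25281 genes tested in whole seedlings. They were the genes placed on the KEGG maps of phenylpropanoid or flavonoid biosynthesis, or carrying the Pfam multicopper oxidase domain found in laccases. Peroxidases, cytochrome P450 enzymes, UDP-glycosyltransferases and BAHD acyltransferases were taken out. That removed 176 of 382 genes and left 206. Of these, 125 reached 1 TPM (transcript abundance scaled for gene length and library total) in at least 2 of the 8 libraries. The other 81 never exceeded 1.25 TPM in any library, and 37 of them were at 0 in all 8.

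The plants were hydroponic seedlings, 2 weeks old and kept at 25 °C, of the wild-type japonica cultivar ZH11 and of OE1, a transgenic line that overexpresses ScOYE3 (per the labels), a flavin oxidoreductase from yeast. Both genotypes were collected untreated or 8 h after 0.8 mM 2-nitroaniline, a nitroaromatic compound, had been added. Each of the 4 groups had 2 libraries, each from a pool of 20 whole plants. OE1 is a single line, its promoter is not given in the labels, and the transgene's level was not analysed here. The labels do not say that the pools of a group were treated separately, so p-values measure no more than the spread between these libraries, which may be technical.

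The phenylpropanoid pathway turns phenylalanine into cinnamic and then coumaric acid derivatives, which phenylalanine ammonia-lyase (PAL) and 4-coumarate:CoA ligase (4CL) feed into several branches. One branch reduces and methylates the activated acids to monolignols, which laccases and peroxidases couple into lignin in the cell wall. Another begins with chalcone synthase (CHS) and chalcone isomerase (CHI) and leads to flavonoids, which in grasses include the flavone tricin, also a unit of lignin.

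The members fell into 18 early genes (8 PAL, 5 4CL and 5 4CL-like), 24 lignin genes, 12 flavonoid genes, 32 multicopper oxidases of the laccase step, 35 beta-glucosidases and 4 others. The names did not hold throughout. Of the 32 multicopper oxidases only 20 matched laccases. The rest were 3 ascorbate oxidases, 6 homologs of ascorbate oxidase or SKU5 and 3 homologs of LPR1, families not known for lignin polymerisation. One flavonoid member, LOC_Os06g08570, was assigned through an acyltransferase match but lacks that domain. The 4 others included a pair of 1-Cys peroxiredoxins, which reduce peroxides and are on the KEGG map without being enzymes of the pathway. Symbols are best Swiss-Prot matches and need not be the gene itself, and a rice entry was matched for 85 of the 125.

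Trimmed libraries held 42.14 M to 56.54 M reads. Replicates of a group were least alike in treated ZH11, where members differed by a median of 0.42 on the log2 scale, against 0.10 to 0.18 in the other groups, and 8 members were at least 2-fold apart. Treated ZH11 replicate 2 had the lowest GC content, 52.04% against up to 55.43%, and a gradient with gene length. In that library the median log2 deviation of all genes was -0.42 at 500 to 1000 nt and 0.32 at 2000 to 3000 nt, against -0.10 at 2000 to 3000 nt in treated ZH11 replicate 1. Treated OE1 replicate 2 had a smaller gradient the other way, with 0.15 at 500 to 1000 nt and -0.16 at 2000 to 3000 nt. The members had a median length of 2009 nt. Values of most named genes in treated ZH11 are therefore given for each library. The 30 shoot markers (chlorophyll-binding proteins and the small Rubisco subunit) summed to 62631 to 64621 TPM in the untreated libraries and to 48181 to 55744 TPM in the treated ones, and 1 marker was at 0 in some library. The part of this shift in the levels below was not tested, and in whole seedlings fewer cells of a type and less RNA per cell cannot be told apart.

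A member was called where limma, fitted over all 8 libraries on log2(TPM + 1), gave a Benjamini-Hochberg adjusted p under 0.05 over all genes tested and a log2 fold of at least 1 in size. Folds are on that scale, which understates changes of genes with low TPM, and are followed by their standard error (n = 2 libraries per group). After treatment, 3 of 125 members rose in ZH11, where 0.174% of all genes did, and 0 fell, where 0.115% of all genes did. Of the 125 members, limma's unadjusted p was under 0.05 for 14 higher and 15 lower in ZH11, against 5.42% and 7.25% of all genes. In OE1, 1 member rose (0.127% of all genes) and 1 fell (0.115% of all genes). The unadjusted limma p there was under 0.05 for 8 higher and 25 lower of the 125 members, against 5.36% and 4.08% of all genes. No called member was in the early step, the flavonoid step or the laccase step in either treatment comparison.

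**Figure D1:**
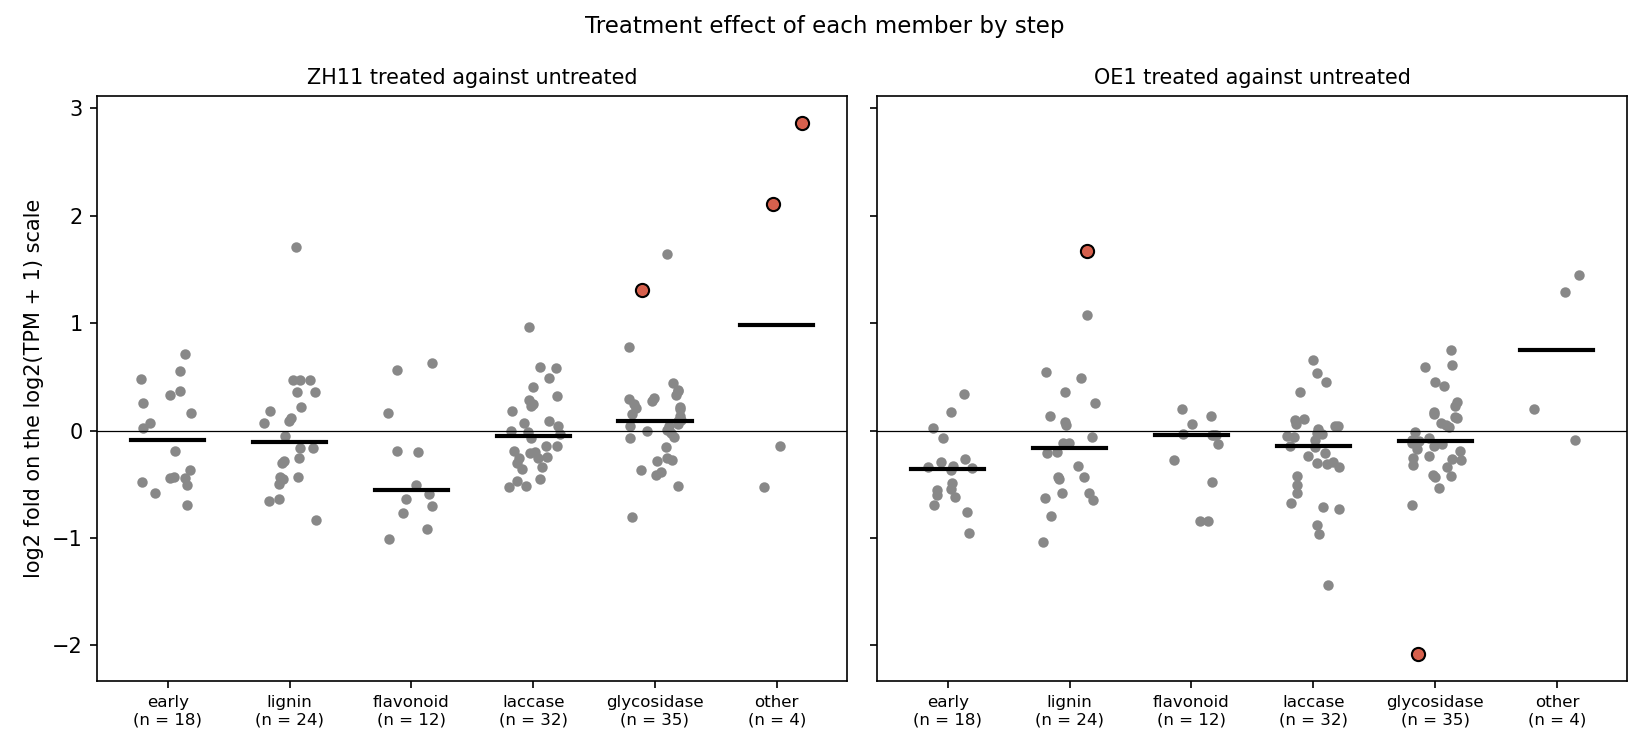
Log2 fold of each member on the log2(TPM + 1) scale, treated against untreated, in ZH11 (left) and OE1 (right), by step. Each point is 1 gene, bars are medians and red points are called genes. Most members lie within 1 of 0 in both genotypes, the flavonoid median is -0.55 in ZH11, the early median is -0.35 in OE1, and 3 members in ZH11 and 2 in OE1 are called.

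A looser description counts members whose 2 treated libraries both lay above, or both below, the 2 untreated ones. In OE1 this held upward for 26 of 125 members, against 23.8% of all genes, and downward for 60, or 48.0%, against 28.6% of all genes. In ZH11 it held upward for 27 members, against 15.9% of all genes, and downward for 38, or 30.4%, against 18.4% of all genes. Downward in both genotypes were 27 members, or 21.6%, against 8.5% of all genes, and upward in both were 11, or 8.80%, against 6.38% of all genes. The opposite directions held for fewer members. There were 6 members above in ZH11 and below in OE1, or 4.8%, against 2.24% of all genes. The other way there were 3, or 2.4%, against 2.57% of all genes. The shared downward members included 8 of 24 in the lignin step (33.3%), 7 of 18 in the early step (38.9%) and 4 of 12 in the flavonoid step (33.3%). The laccase step and the glycosidases had 4 each, or 12.5% and 11.4%.

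The early step was dominated by 1 gene. LOC_Os02g41630, a PAL gene, held 71.1% of the step's summed TPM. PAL removes ammonia from phenylalanine and commits carbon to the pathway. LOC_Os02g41630 was at 1523 and 1316 TPM in untreated ZH11, at 1462 and 3671 in treated ZH11, at 1346 and 1167 in untreated OE1 and at 1291 and 1109 in treated OE1. The high value was in treated ZH11 replicate 2 alone, and the other 7 libraries overlapped between groups. Its log2 fold in ZH11 was 0.71 ± 0.38 (limma adjusted p = 0.47), and 0.05 without treated ZH11 replicate 2.

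The next PAL genes showed the same outlying library. LOC_Os02g41650 was at 237 and 205 TPM in untreated and at 219 and 431 TPM in treated ZH11, and LOC_Os12g33610 at 67.2 and 68.2 and at 62.7 and 116. In OE1 both lay lower after treatment without overlap, from 224 and 205 to 191 and 167 TPM for LOC_Os02g41650 and from 96.5 and 85.7 to 56.5 and 50.5 TPM for LOC_Os12g33610. The OE1 folds were -0.27 ± 0.29 and -0.76 ± 0.26, neither called by limma (adjusted p = 0.99 and 0.40). Over the 8 PAL genes the median deviation from the untreated ZH11 mean was -0.18 in treated ZH11 replicate 1, 0.74 in treated ZH11 replicate 2, and -0.22 and -0.38 in the treated OE1 libraries. LOC_Os05g35290, a PAL gene picked out after its values were seen, was lower in every treated library. It was at 18.6 and 18.7 TPM in untreated and at 9.28 and 13.3 in treated ZH11. In OE1 it went from 20.9 and 19.7 to 17.0 and 15.0 TPM. The PAL genes LOC_Os02g41630, LOC_Os02g41650, LOC_Os02g41670 and LOC_Os02g41680 are neighbours on chromosome 2, and how reads were divided among such similar copies is uncertain.

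4CL activates coumaric acid and related acids as CoA thioesters. LOC_Os02g08100 (4CL3), the most abundant of the 5, was at 131 and 127 TPM in untreated ZH11, at 89.8 and 142 in treated ZH11, at 136 and 130 in untreated OE1 and at 83.7 and 79.9 in treated OE1. The OE1 groups did not overlap and the ZH11 groups did. Its OE1 fold was -0.69 ± 0.21 (limma adjusted p = 0.30). In OE1, 4 of the 5 4CL genes and 4 of the 5 4CL-like genes lay lower after treatment without overlap, against 28.6% of all genes. In ZH11 3 of each did, against 18.4% of all genes. LOC_Os06g44620 (4CL4), picked out after its values were seen, was at 54.6 to 69.1 TPM in every library. LOC_Os02g46970 (4CL2), chosen in the same way, went from 4.51 and 4.15 to 1.64 and 1.88 TPM in OE1 (-0.95 ± 0.18, limma adjusted p = 0.10). The authors' deposited table for OE1 lists it as changed, with a log2 fold of -1.25.

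Over the whole early step, 14 of 18 members in OE1 (77.8%) lay lower after treatment without overlap and 2 (11.1%) lay higher. Of all genes, 28.6% and 23.8% did. The median log2 fold was -0.35 in OE1, against -0.04 over all genes tested. The early median deviation from the untreated ZH11 mean was -0.17 in treated OE1 replicate 1 and -0.33 in replicate 2. In treated OE1 replicate 2 all genes of 2000 to 3000 nt had a median of -0.16. The shares and medians of all genes were not matched to the early members by length. In ZH11 the median log2 fold was -0.08, against 0.02 over all genes. There 7 members (38.9%) were lower and 0 higher without overlap, where 18.4% and 15.9% of all genes were. The 2 treated ZH11 libraries differed. Replicate 1 lay below both untreated libraries for 13 of 18 early members and above for 0, where 41.3% and 27.7% of all genes did. Replicate 2 lay below for 7 and above for 10, where 35% and 47.9% of all genes did. The early median was -0.26 in replicate 1 and 0.09 in replicate 2. In OE1, 4 of the 5 root markers (Lsi1, Lsi2, Nramp5, HMA3 and RCc3) also lay lower after treatment without overlap, and 1 lay higher. The median fold of the 5 was -0.57, and 3 were lower with an unadjusted limma p under 0.05. The sum of the 5 went from 757 and 753 TPM to 622 and 537 TPM, and none was at 0. Their part in the early decreases in OE1 was not tested. In ZH11 all 5 overlapped, with a median fold of 0.09. They summed there to 530 and 505 TPM untreated and to 447 and 597 TPM treated. Against the untreated ZH11 mean, the root marker median of treated ZH11 replicate 2 was 0.35 and its shoot marker median -0.54. Those of replicate 1 were -0.08 and -0.21. The part of these shifts in the high values of replicate 2, PAL included, was not tested. Early members were not called in any comparison.

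**Figure D2:**
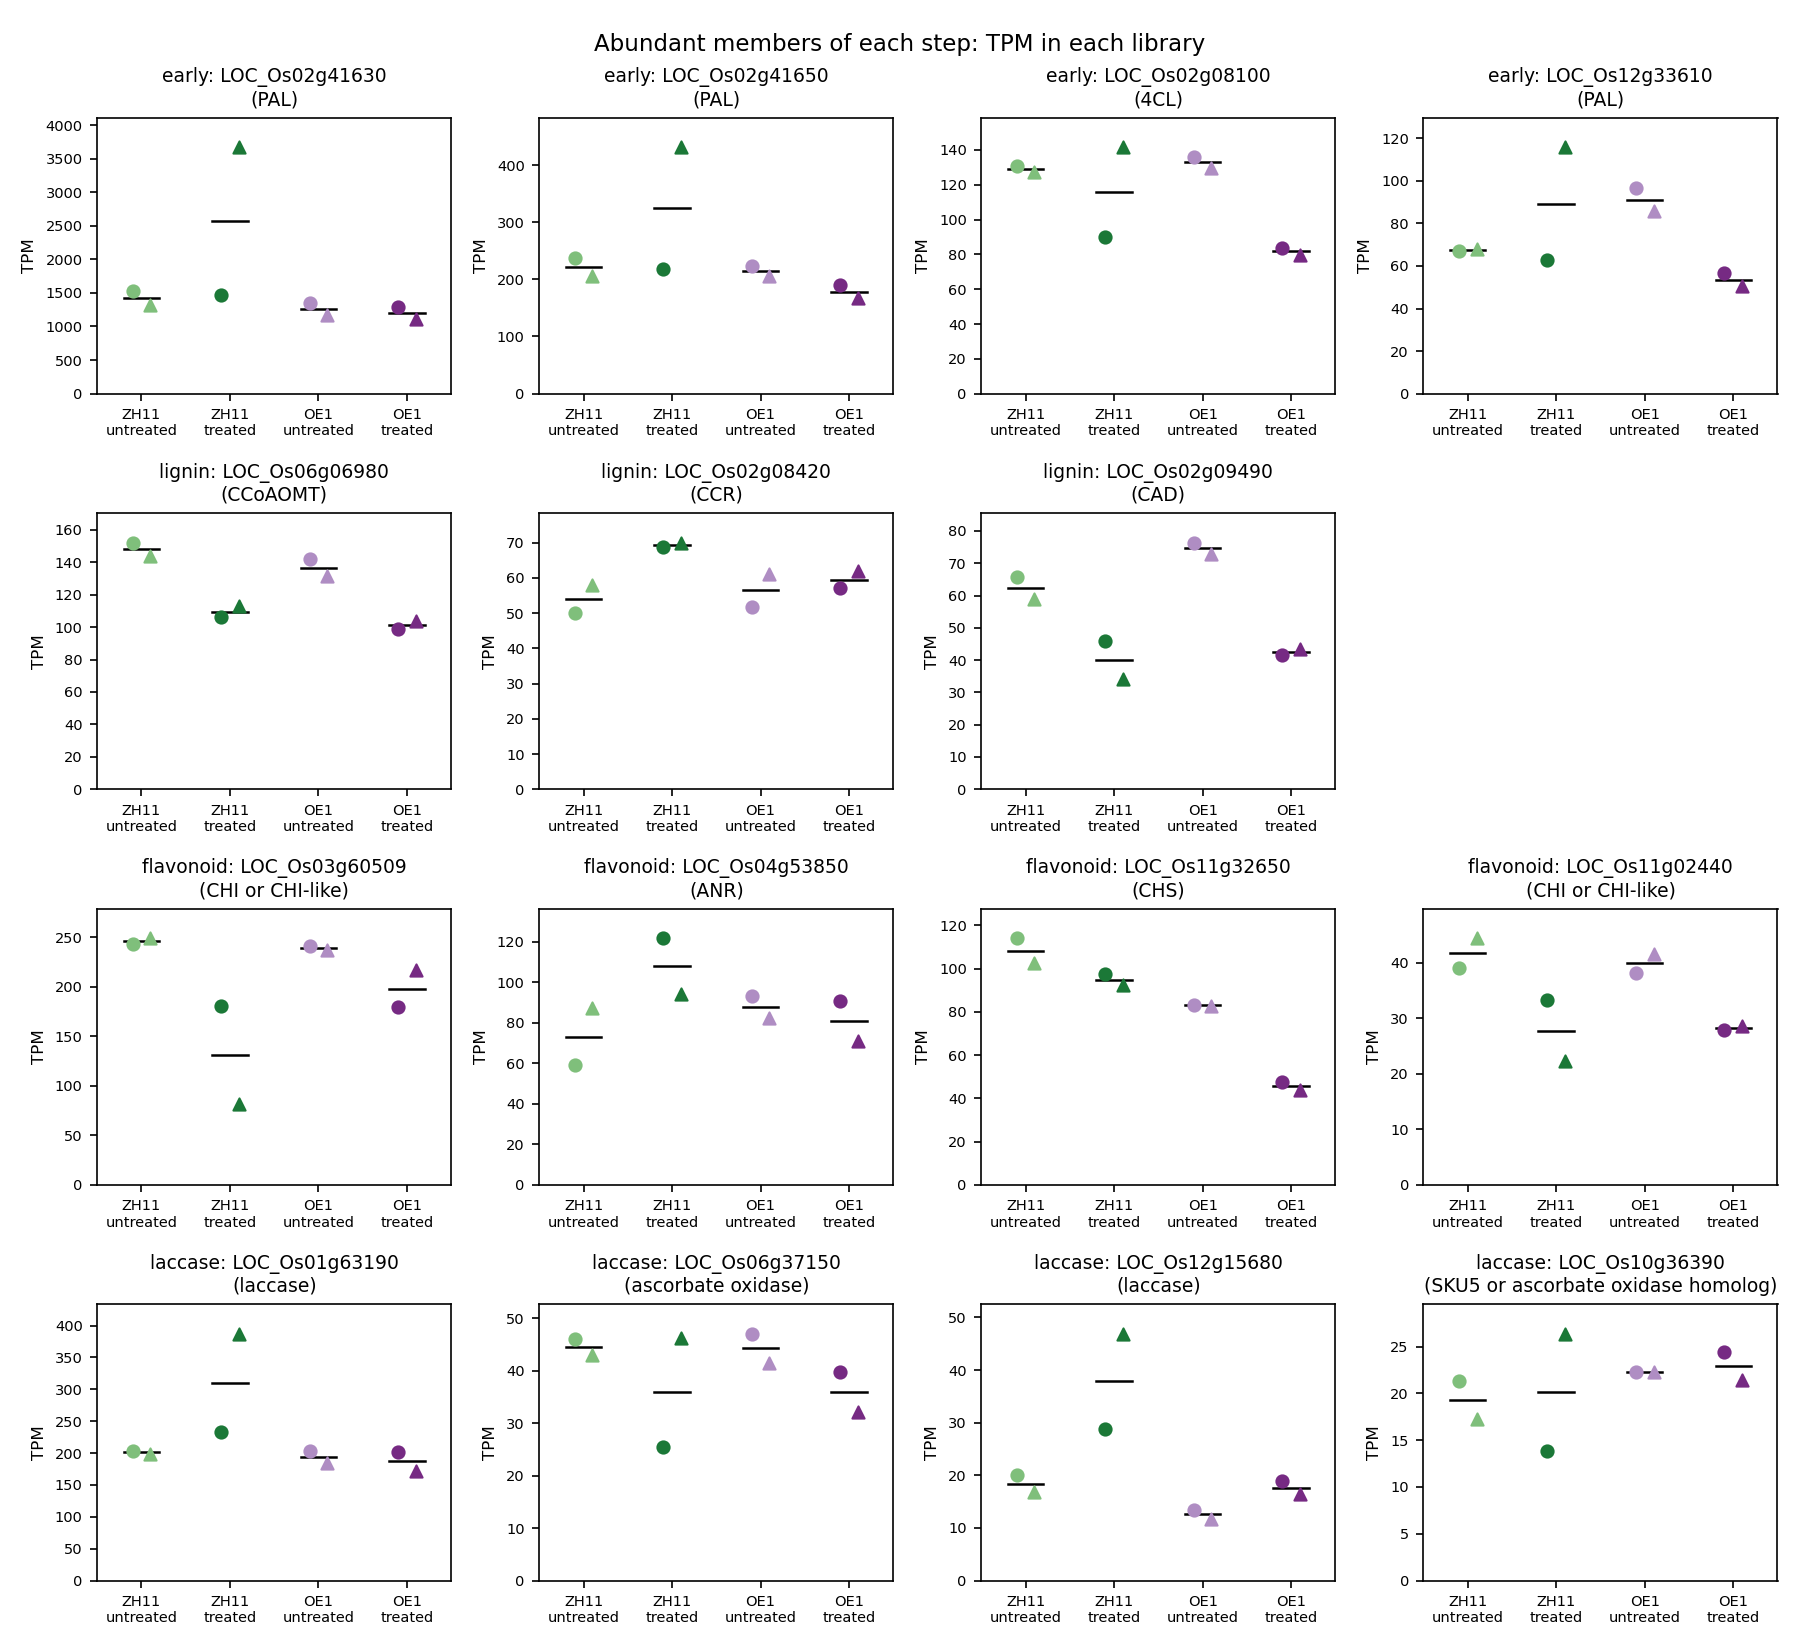
TPM of abundant members of the early, lignin, flavonoid and laccase steps in each library. Circles are replicate 1, triangles replicate 2, and bars the mean of the 2 libraries. The PAL gene LOC_Os02g41630 is at 1109 to 1523 TPM in 7 libraries and at 3671 in treated ZH11 replicate 2, and LOC_Os06g06980 and LOC_Os02g09490 of the lignin step are lower in all 4 treated libraries than in all 4 untreated ones.

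In the lignin step abundant genes of 2 enzyme families were lower in every treated library of both genotypes, although neither was called. LOC_Os06g06980, a match to caffeoyl-CoA O-methyltransferase, which methylates the CoA ester, was at 152 and 144 TPM in untreated ZH11, at 106 and 113 in treated ZH11, at 142 and 132 in untreated OE1 and at 98.8 and 104 in treated OE1. Its fold was -0.43 ± 0.12 in each genotype (limma adjusted p = 0.24 and 0.27), and the difference of the 2 treatment effects was 0.00 ± 0.18. With the length gradient removed the folds were -0.28 in ZH11 and -0.46 in OE1, and the difference was -0.18. LOC_Os02g09490 (CAD2) encodes the cinnamyl alcohol dehydrogenase whose loss gives the gold hull and internode phenotype of rice. It was at 65.8 and 58.9 TPM in untreated ZH11, at 45.9 and 34.1 in treated ZH11, at 76.4 and 73.0 in untreated OE1 and at 41.5 and 43.5 in treated OE1. The folds were -0.64 ± 0.17 and -0.80 ± 0.17 (limma adjusted p = 0.21 and 0.14).

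A second alcohol dehydrogenase moved the other way from a low level. LOC_Os11g40690 (CAD4) was at 1.64 and 1.86 TPM in untreated ZH11, at 1.29 and 1.32 in treated ZH11, at 0.71 and 0.72 in untreated OE1 and at 3.95 and 5.03 in treated OE1. The treated OE1 libraries were above all others. It rose in OE1 by 1.67 ± 0.21 (limma adjusted p = 0.036) and had a fold of -0.25 ± 0.21 in ZH11. The difference of the effects was 1.93 ± 0.29 (limma adjusted p = 0.19). The authors' deposited table for OE1 also lists it, with a log2 fold of 2.70. Its limma call in OE1 ended without untreated ZH11 replicate 1 or 2 (adjusted p = 0.072 for each) and without any 1 of the 4 OE1 libraries (adjusted p = 0.27 to 0.47), and held without treated ZH11 replicate 1 or 2 (adjusted p = 0.011 for each). The OE1 fold also depended on the pseudocount, at 2.48 with 0.1 and at 0.73, below the fold threshold, with 5. The call ended with no level filter and with the replicate block (limma adjusted p = 0.051 and 0.090), and a filter of 5 TPM removed the gene.

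Cinnamoyl-CoA reductase (CCR) opens the monolignol branch by reducing the CoA ester to an aldehyde, and its 6 members did not move together. LOC_Os02g56700 was at 1.27 and 0.81 TPM in untreated ZH11, at 4.73 and 6.67 in treated ZH11, at 0.21 and 0.56 in untreated OE1 and at 1.74 and 2.07 in treated OE1. Treated libraries were higher without overlap within each genotype, and each ZH11 group was above the OE1 group of the same treatment. Its folds were 1.71 ± 0.26 and 1.08 ± 0.26 (limma adjusted p = 0.062 and 0.19), and the authors' deposited tables list it in both genotypes with log2 folds of 2.40 and 2.36. LOC_Os02g08420, the most abundant, was at 49.9 and 57.9 TPM in untreated ZH11, at 68.6 and 70.0 TPM in treated ZH11, and at 51.8 and 61.2 and at 57.0 and 61.9 in OE1. It was higher without overlap in ZH11 (0.36 ± 0.15) and overlapped in OE1. LOC_Os08g34280, picked out after its values were seen, was instead lower in all treated libraries, at 21.6 and 17.6 against 12.5 and 8.90 TPM in ZH11 and at 18.7 and 17.2 against 11.9 and 11.5 TPM in OE1.

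Other lignin members were 7 matches to caffeoyl shikimate esterase and 3 aldehyde dehydrogenases like Arabidopsis REF1, which oxidises coniferaldehyde and sinapaldehyde. The esterase matches had median folds of 0.12 in ZH11 and 0.05 in OE1. All 3 aldehyde dehydrogenases lay lower after treatment without overlap in OE1. In ZH11 2 lay lower and LOC_Os01g40870, named after its values were seen, lay higher, at 47.8 and 41.5 TPM untreated and 60.7 and 63.3 treated. The same gene was at 62.6 and 63.7 TPM in untreated OE1 and at 48.6 and 43.2 in treated OE1, so the folds had opposite signs and the order of the genotypes was exchanged (0.47 ± 0.14 and -0.45 ± 0.14, neither called). In ZH11 6 of the 24 lignin members (25%) were higher and 10 (41.7%) lower without overlap, against 15.9% and 18.4% of all genes. In OE1 7 (29.2%) were higher and 11 (45.8%) lower, against 23.8% and 28.6% of all genes. The median folds were -0.11 in ZH11 and -0.16 in OE1.

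**Figure D3:**
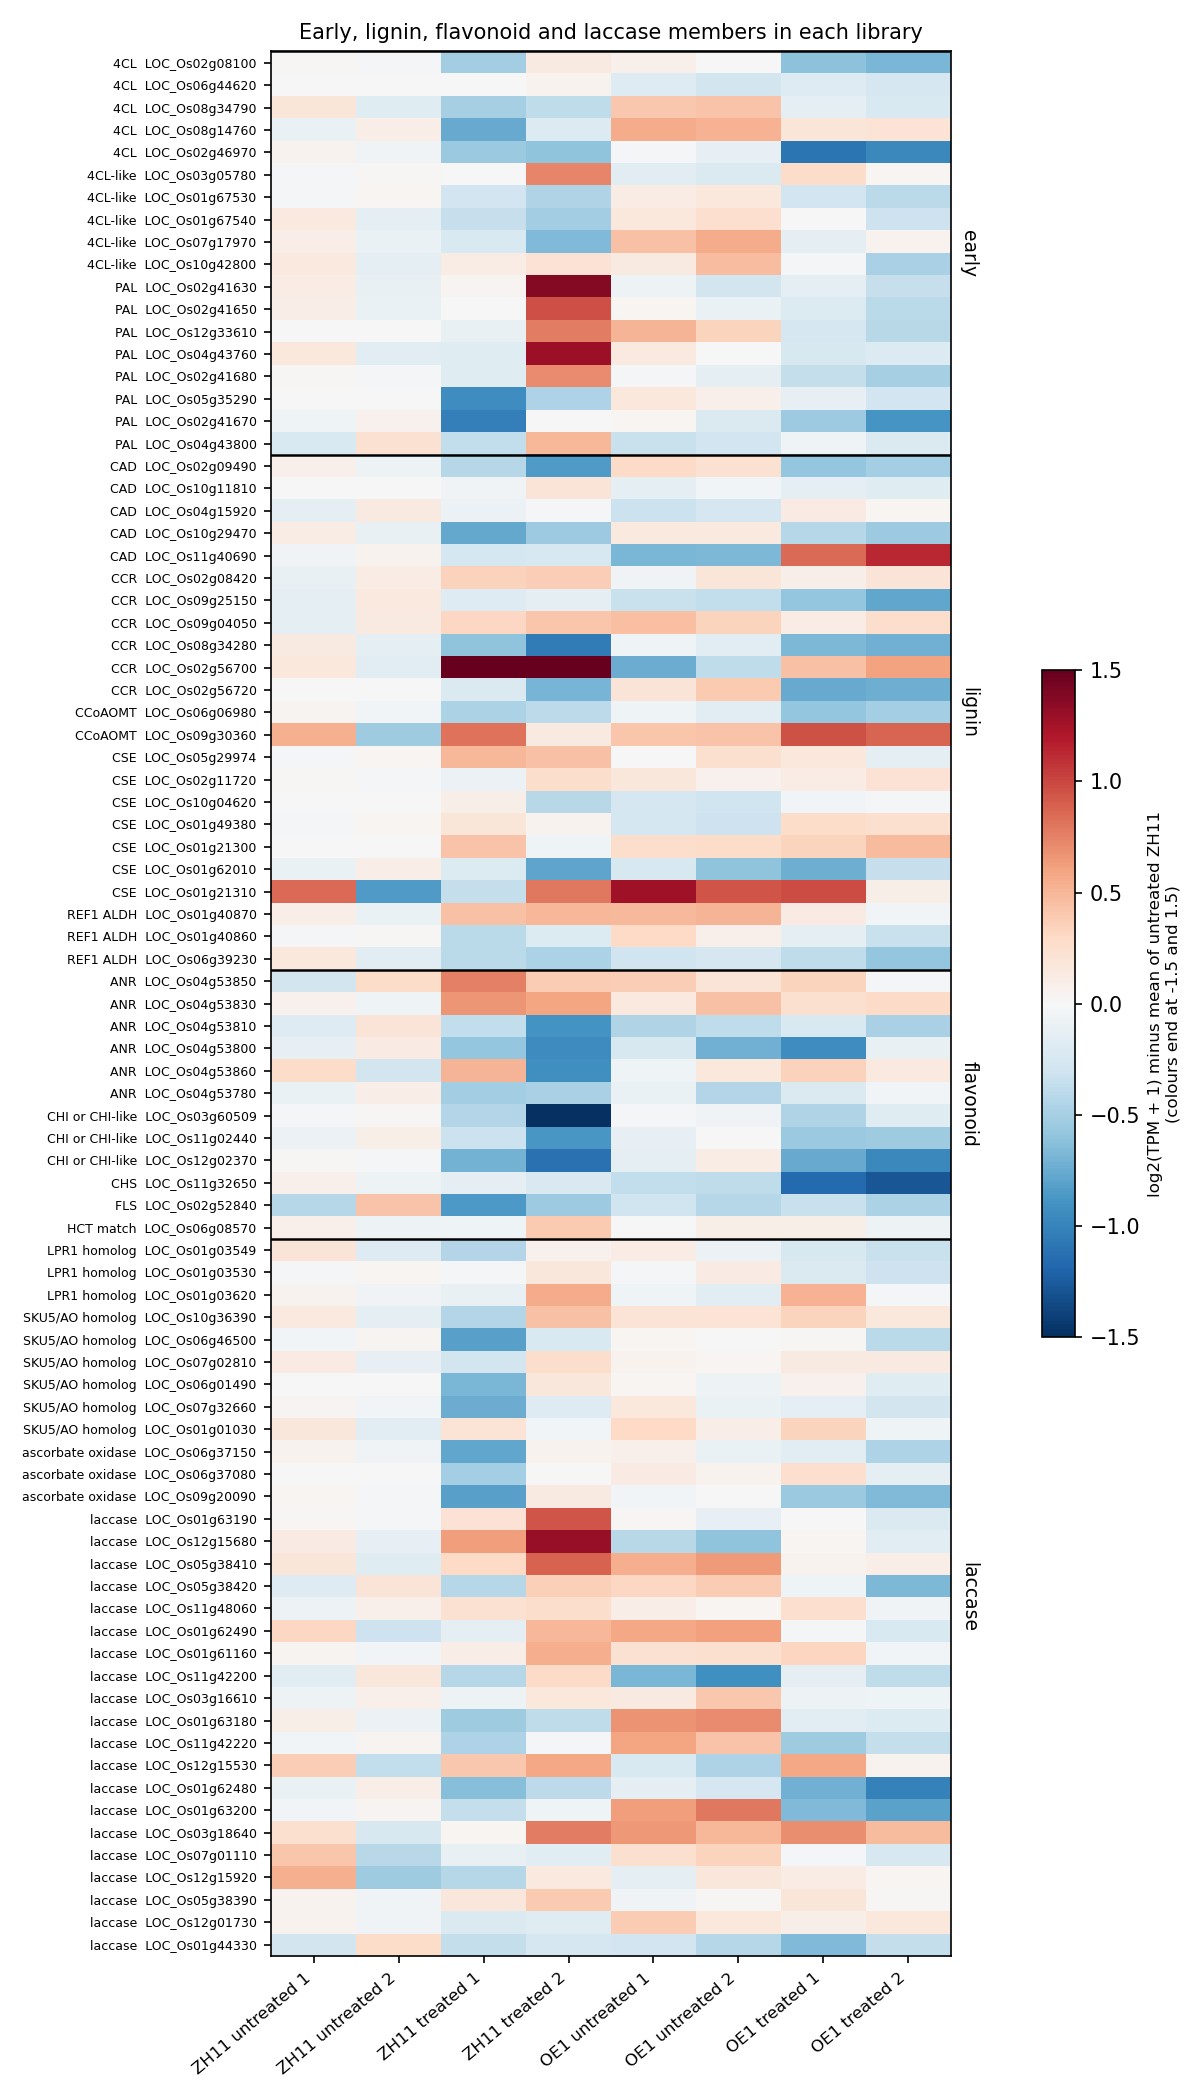
Log2(TPM + 1) of early, lignin, flavonoid and laccase members in each library, minus the mean of the 2 untreated ZH11 libraries. Rows are genes grouped by step and family, red is higher and blue lower, and colours end at -1.5 and 1.5. Most PAL rows are red in treated ZH11 replicate 2 (median of all PAL rows 0.74) but not in replicate 1 (-0.18). The PAL gene LOC_Os05g35290 is blue in both treated ZH11 libraries. The CHS row is bluest in the 2 treated OE1 libraries (-1.17 and -1.28).

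The flavonoid branch had a median fold of -0.55 in ZH11 and -0.04 in OE1. The ZH11 median was -0.35 in treated replicate 1, close to the -0.32 of the laccase step there, and -0.71 in replicate 2. With a pseudocount of 5 it was -0.24. CHS condenses coumaroyl-CoA with malonyl-CoA and opens this branch. Its 1 tested gene, LOC_Os11g32650 (CHS1), was at 114 and 102 TPM in untreated ZH11, at 97.3 and 92.2 in treated ZH11, at 83.1 and 82.7 in untreated OE1 and at 47.5 and 44.0 in treated OE1. Every OE1 library was below every ZH11 library, and within each genotype the treated libraries were below the untreated ones. The folds were -0.19 ± 0.13 in ZH11 and -0.85 ± 0.13 in OE1 (limma adjusted p = 0.54 and 0.063).

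CHI closes the chalcone ring, and its loss gives rice golden hulls. LOC_Os03g60509 (CHI) was at 243 and 249 TPM in untreated ZH11, at 181 and 81.6 in treated ZH11, at 241 and 236 in untreated OE1 and at 179 and 216 in treated OE1. All treated libraries were below all untreated ones. The lowest value was in treated ZH11 replicate 2, and the ZH11 fold went from -1.01 ± 0.33 (limma adjusted p = 0.29) to -0.44 without that library. CHI-like proteins bind CHS and keep it on the flavonoid route. The CHI-like gene LOC_Os11g02440 was at 39.0 and 44.4 TPM in untreated ZH11, at 33.2 and 22.3 in treated ZH11, at 38.1 and 41.7 in untreated OE1 and at 27.9 and 28.6 in treated OE1. With the length gradient removed its ZH11 fold went from -0.60 to -0.39. LOC_Os12g02370, the other CHI-like gene, was at 26.7 and 26.1, 15.8 and 11.7, 24.0 and 28.6, and 15.3 and 13.1 TPM in the same order. Thus CHS and all 3 CHI or CHI-like genes were lower after treatment without overlap in both genotypes. These 4 were the only flavonoid members lower in OE1, or 33.3% of the step, against 28.6% of all genes. None was called on treatment. LOC_Os11g02440 and LOC_Os12g02370 are similar copies on chromosomes 11 and 12, so the division of reads between them is uncertain.

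A run of 6 neighbouring genes on chromosome 4 matched grapevine anthocyanidin reductase, an enzyme of proanthocyanidin synthesis in that species. In ZH11 2 of them were higher and 3 lower after treatment without overlap, and in OE1 all 6 overlapped. The most abundant, LOC_Os04g53850, was at 59.3 and 87.0 TPM in untreated ZH11, at 122 and 94.1 in treated ZH11, at 93.1 and 82.2 in untreated OE1 and at 90.9 and 71.0 in treated OE1 (0.57 ± 0.23 in ZH11, limma adjusted p = 0.39). LOC_Os04g53830 was at 16.02 and 14.5 and at 24.7 and 23.5 TPM in ZH11, whereas LOC_Os04g53810 was at 12.2 and 16.4 and at 10.7 and 7.11 TPM. These 2 genes were chosen after their values were seen. The flavonol synthase match LOC_Os02g52840 stayed between 0.97 and 3.82 TPM, and LOC_Os06g08570 between 12.7 and 18.0 TPM. Of the 42 flavonoid members by annotation, 30 were below the level filter. Those 30 included 13 acyltransferase matches without that domain and 7 genes of none of the families named here.

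Laccases are secreted copper enzymes that oxidise monolignols. In the laccase step LOC_Os01g63190 (LAC7) held 45.2% of the summed TPM. It was at 204 and 198 TPM in untreated ZH11, at 233 and 387 in treated ZH11, at 204 and 184 in untreated OE1 and at 201 and 172 in treated OE1. Both treated ZH11 libraries were above the untreated ones, with the larger difference in replicate 2. The ZH11 fold was 0.58 ± 0.23 (limma adjusted p = 0.38), and 0.21 without treated ZH11 replicate 2.

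LOC_Os12g15680 (LAC24) was at 20.0 and 16.8 TPM in untreated ZH11, at 28.8 and 46.9 in treated ZH11, at 13.5 and 11.7 in untreated OE1 and at 18.8 and 16.4 in treated OE1. It was higher after treatment without overlap in both genotypes, and lower in OE1 than in ZH11 under each condition. The folds were 0.96 ± 0.24 in ZH11 and 0.45 ± 0.24 in OE1 (limma adjusted p = 0.19 and 0.69), and without treated ZH11 replicate 2 the ZH11 fold was 0.62. LOC_Os05g38410, 1 of 3 LAC12 matches, was at 13.1 and 9.94 TPM in untreated ZH11, at 14.2 and 21.96 in treated ZH11, at 17.1 and 18.3 in untreated OE1 and at 11.9 and 12.3 in treated OE1. It was thus higher after treatment in ZH11 and lower in OE1, with a difference of the effects of -1.10 ± 0.32 (limma adjusted p = 0.57). The ZH11 fold was 0.59 ± 0.23, and 0.30 without treated ZH11 replicate 2.

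Several laccases of lower level were higher in untreated OE1 than in untreated ZH11 and lower again in treated OE1. LOC_Os01g63180 (LAC6) was at 6.23 and 5.42 TPM in untreated ZH11, at 3.71 and 4.25 in treated ZH11, at 9.84 and 10.1 in untreated OE1 and at 5.06 and 4.90 in treated OE1. LOC_Os01g62490, another LAC12 match, was at 14.03 and 8.85, 10.01 and 16.2, 17.2 and 17.7, and 10.9 and 9.42 TPM in that order. LOC_Os01g63200 (LAC8), picked out after its values were seen, was at 2.55 and 2.76, 1.86 and 2.50, 4.63 and 5.31, and 1.31 and 1.09 TPM. Its OE1 fold was -1.44 ± 0.21 (limma adjusted p = 0.053), and the authors' deposited table for OE1 lists it with a log2 fold of -2.02. The same deposited table of the authors lists LOC_Os11g42220 (LAC20) with a log2 fold of -1.07. LAC20 lay lower after treatment without overlap in OE1 and overlapped in ZH11. Its levels in the untreated genotypes are not compared here. The root markers had the same pattern, with a median 0.51 higher in untreated OE1 than in untreated ZH11 and a fold of -0.57 on treatment in OE1, and their part in these laccase levels was not tested. LOC_Os11g42200 (LAC19) differed from these, at 7.50 and 9.80, 6.11 and 10.7, 4.96 and 4.05, and 7.64 and 6.36 TPM. LAC6, LAC7 and LAC8 are neighbours on chromosome 1, as LAC19 and LAC20 are on chromosome 11, and the division of reads within such clusters is uncertain.

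Of the 20 laccases, 7 were higher and 4 lower after treatment without overlap in ZH11, against 15.9% and 18.4% of all genes. In OE1 3 were higher and 9 lower, against 23.8% and 28.6% of all genes. The median folds were 0.00 in ZH11 and -0.15 in OE1. In treated ZH11 replicate 2 the median laccase was 0.28 above untreated ZH11 and in replicate 1 it was 0.13 below. Among the other multicopper oxidases, LOC_Os06g37150 is annotated as an ascorbate oxidase by its description, KEGG entry and domains, while its best Swiss-Prot match is the Arabidopsis membrane protein TMN7. It was at 46.0 and 43.0 TPM in untreated ZH11, at 25.5 and 46.2 in treated ZH11, at 47.0 and 41.5 in untreated OE1 and at 39.6 and 32.1 in treated OE1. LOC_Os10g36390, an SKU5 or ascorbate oxidase homolog, was at 21.3 and 17.3, 13.9 and 26.4, 22.3 and 22.3, and 24.5 and 21.5 TPM. For both, the treated ZH11 libraries lay on either side of the untreated ones. The ZH11 fold of LOC_Os06g37150 went from -0.36 to -0.63 with the length gradient removed. The median of all 32 multicopper oxidases in ZH11 was -0.05, and -0.32 without treated ZH11 replicate 2.

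Beta-glucosidases, which release monolignols, flavonoids and other aglycones from their stored glucosides, supplied 35 members and 2 of the called ones. LOC_Os05g30350 (BGLU22) was at 31.0 and 32.9 TPM in untreated ZH11, at 73.2 and 88.2 in treated ZH11, at 27.0 and 24.9 in untreated OE1 and at 41.9 and 37.1 in treated OE1. Treated libraries were above untreated ones in both genotypes. It rose in ZH11 by 1.30 ± 0.15 (limma adjusted p = 0.024), and the OE1 fold was 0.59 ± 0.15 (limma adjusted p = 0.22). LOC_Os10g17650 (BGLU34) was at 22.9 and 24.5 TPM in untreated ZH11, at 14.8 and 20.7 in treated ZH11, at 27.0 and 30.1 in untreated OE1 and at 6.49 and 5.50 in treated OE1. Every treated library was below every untreated one. In OE1 it fell, with a log2 fold of -2.08 ± 0.19 (limma adjusted p = 0.013), and the ZH11 fold was -0.41 ± 0.19 (limma adjusted p = 0.43). The difference of the effects was -1.67 ± 0.27 (limma adjusted p = 0.19).

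Both calls depended on which libraries entered the fit. That of LOC_Os05g30350 in ZH11 ended without untreated ZH11 replicate 1 or 2 (limma adjusted p = 0.18 and 0.26) and without any 1 of the 4 OE1 libraries (0.093 to 0.12). It held without either treated ZH11 library (limma adjusted p = 0.0011 and 0.015). It ended with no level filter and with the replicate block (limma adjusted p = 0.051 and 0.078). That of LOC_Os10g17650 in OE1 ended without any 1 of the OE1 libraries (limma adjusted p = 0.16 to 0.26) or of the untreated ZH11 libraries (0.056 for each), and held without either treated ZH11 library. Fitted on their own 4 libraries, the ZH11 calls all ended (limma adjusted p = 0.47 to 0.67), while the OE1 calls held (0.0017 and 0.0073).

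The most abundant glycosidases belonged to family GH3. LOC_Os03g53800 was at 431 and 425 TPM in untreated ZH11, at 466 and 729 in treated ZH11, at 434 and 425 in untreated OE1 and at 422 and 359 in treated OE1. LOC_Os03g53860 was at 303 and 266, 294 and 339, 316 and 305, and 276 and 241 TPM. In both the highest value was in treated ZH11 replicate 2. LOC_Os09g33680 (BGLU31), whose rice protein is a transglucosidase acting on phenolic acid and flavonoid glucosides, was picked out after its values were seen. It was at 30.4 and 31.6 TPM in untreated ZH11, at 77.0 and 127 TPM in treated ZH11, and at 42.8 and 39.1 and at 68.1 and 58.1 in OE1 (1.64 ± 0.23 in ZH11, limma adjusted p = 0.052). The authors' deposited table for ZH11 lists it with a log2 fold of 1.66. Over the 35 glycosidases the median folds were 0.09 in ZH11 and -0.10 in OE1. In ZH11 10 (28.6%) were higher and 7 (20%) lower without overlap, against 15.9% and 18.4% of all genes. In OE1 9 (25.7%) were higher and 16 (45.7%) lower, against 23.8% and 28.6% of all genes. The ZH11 median was -0.05 in treated replicate 1 and 0.25 in replicate 2, so its sign rested on replicate 2.

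In ZH11 the largest treatment effects among the 125 members were those of the 2 peroxiredoxins. LOC_Os07g44440 was at 98.8 and 122 TPM in untreated ZH11, at 663 and 977 in treated ZH11, at 121 and 114 in untreated OE1 and at 322 and 321 in treated OE1. LOC_Os07g44430 was at 33.9 and 34.7, 194 and 117, 32.8 and 38.5, and 95.6 and 81.8 TPM. They rose there by 2.86 ± 0.20 and 2.10 ± 0.24 (limma adjusted p = 0.0065 and 0.022), and the OE1 folds were 1.45 ± 0.20 and 1.29 ± 0.24 (limma adjusted p = 0.053 and 0.097). Both ZH11 calls ended without untreated ZH11 replicate 1 or 2 (limma adjusted p = 0.061 to 0.26), and that of LOC_Os07g44430 also without any 1 of the OE1 libraries (0.088 to 0.11), with no level filter (0.076) and with the replicate block (0.056). The authors' deposited tables list LOC_Os07g44440 and LOC_Os07g44430 in both genotypes. The log2 folds there are 2.90 and 2.19 in ZH11 and 1.49 and 1.35 in OE1. The 2 genes are neighbours on chromosome 7, and reads shared between them are uncertain.

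**Figure D4:**
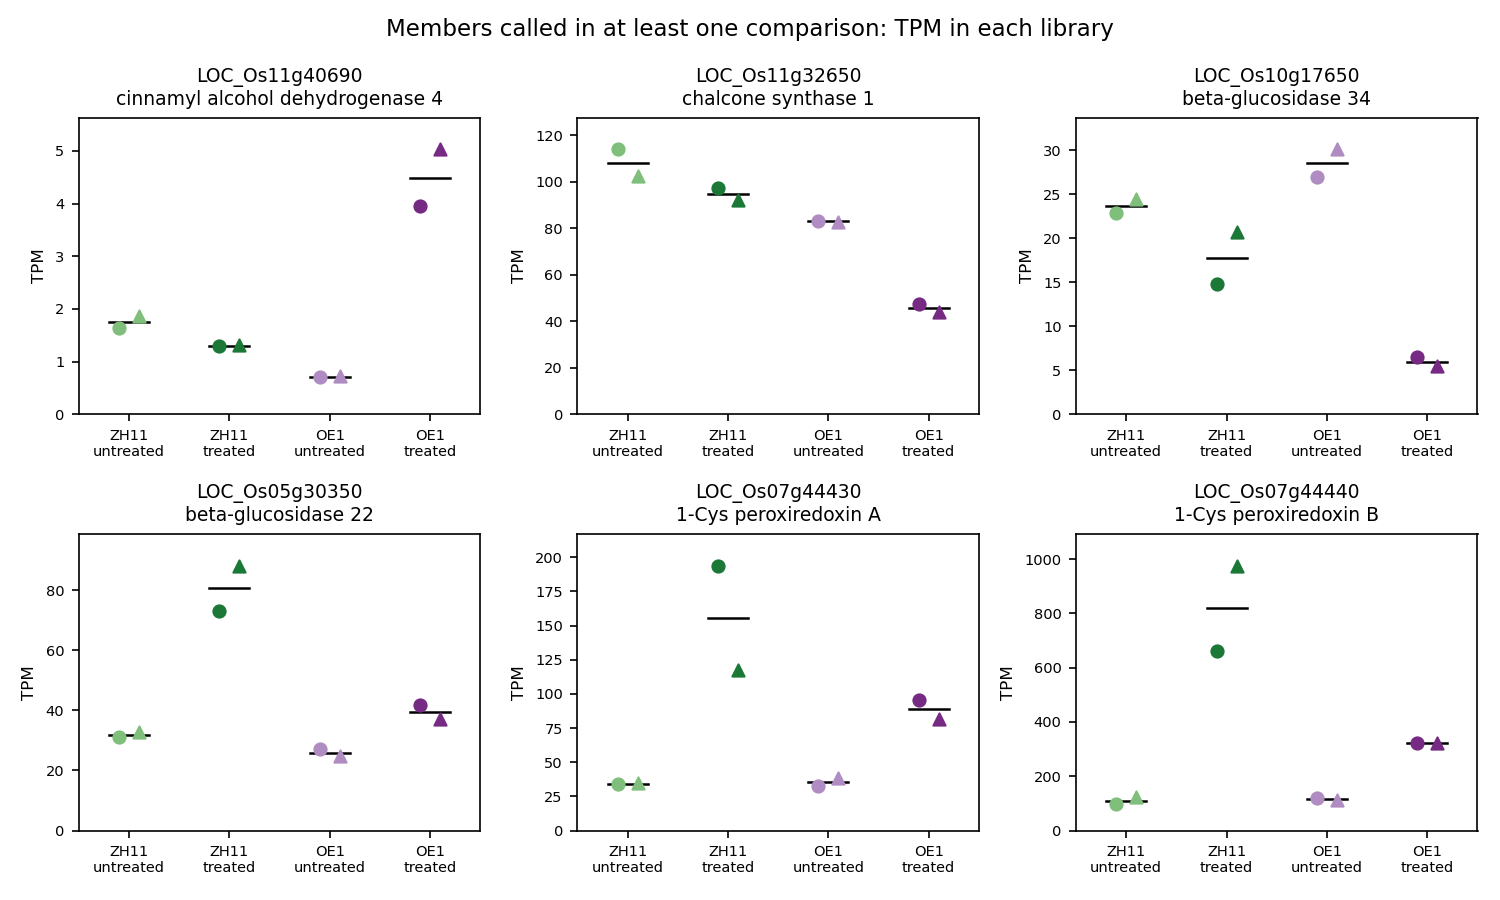
TPM in each library of the 6 members called in at least 1 comparison. Circles are replicate 1, triangles replicate 2, and bars the mean of the 2 libraries. CAD4 is highest in treated OE1 (3.95 and 5.03 TPM), CHS1 and BGLU34 are lowest there (47.5 and 44.0, and 6.49 and 5.50 TPM), and BGLU22 and both peroxiredoxins are highest in treated ZH11.

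Between the genotypes, untreated OE1 and ZH11 had 0 members called higher (0.396% of all genes) and 0 called lower (0.0475% of all genes). Limma's unadjusted p was under 0.05 for 8 higher and 4 lower of the 125 members, against 3.46% and 1.48% of all genes. The largest differences at moderate level were in laccases. LAC6 was 0.69 ± 0.17 higher, LOC_Os01g62490 was 0.60 ± 0.28 higher and LAC19 was 0.80 lower (fold -0.80 ± 0.27), with limma adjusted p of 0.34, 1 and 0.75. The 5 root markers summed to 757 and 753 TPM in untreated OE1 against 530 and 505 TPM in untreated ZH11. None of them was at 0, 4 of 5 were higher in OE1 without overlap, and their part in the laccase levels was not tested.

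Under treatment, 1 member was higher in OE1 than in ZH11 (0.799% of all genes) and 4 were lower (0.154% of all genes). The unadjusted limma p was under 0.05 for 5 higher and 22 lower of the 125 members, against 9.83% and 5.25% of all genes. The higher one was CAD4 (LOC_Os11g40690, 1.25 ± 0.21, limma adjusted p = 0.048). CHS1 was lower by -1.04 ± 0.13 (LOC_Os11g32650, limma adjusted p = 0.018), BGLU22 by -1.01 ± 0.15 (LOC_Os05g30350, 0.037), BGLU34 by -1.41 ± 0.19 (LOC_Os10g17650, 0.025) and the peroxiredoxin LOC_Os07g44440 by -1.32 ± 0.20 (0.039). For CHS1 the untreated genotypes already differed by -0.38 ± 0.13. The authors' deposited table of this comparison lists 2 members, LOC_Os10g17650 and LOC_Os07g44440.

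These 5 calls were close to the thresholds. Without treated ZH11 replicate 2, the calls of CAD4 (limma adjusted p = 0.075) and BGLU22 (log2 fold -0.87) ended, and those of CHS1, BGLU34 and LOC_Os07g44440 held. Without treated ZH11 replicate 1 the CHS1 fold was -0.998, just short of the fold threshold, and the call ended. All 5 ended without any 1 of the OE1 libraries (limma adjusted p = 0.090 to 0.43). Those of BGLU22, BGLU34, LOC_Os07g44440 and CAD4 also ended without untreated ZH11 replicate 1 or 2 (0.062 to 0.079). The abundant PAL gene LOC_Os02g41630 had a fold of -0.95 ± 0.38 in OE1 under treatment, and -0.29 without treated ZH11 replicate 2.

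The difference of the treatment effects between the genotypes was called for 0 members in either direction in limma, where 0.0277% and 0.00396% of all genes were called higher and lower. The unadjusted limma p was under 0.05 for 2 higher and 16 lower of the 125 members, against 3.86% and 2.59% of all genes. The largest in size were CAD4, BGLU34, the GH3 gene LOC_Os02g03870 (1.55 ± 0.53, limma adjusted p = 0.65) and the peroxiredoxin LOC_Os07g44440 (-1.41 ± 0.29, limma adjusted p = 0.36). LOC_Os02g03870, which stayed between 0.69 and 3.83 TPM, had its highest value in untreated ZH11 replicate 2. A member called in 1 genotype alone is therefore not shown to respond differently in the other. Without treated ZH11 replicate 1, which leaves replicate 2 as the only treated ZH11 library, 2 members were called higher and 11 lower, but so were 5.28% and 5.43% of all genes.

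Enzymes of the same maps that are not members give the surroundings, with amino acid biosynthesis genes and dirigent proteins selected apart from those maps. Their median folds are to be read beside those of all genes given for the early step. The 11 P450 genes, the family of cinnamate hydroxylase and the later ring hydroxylases, had median folds of -0.43 in ZH11 and -0.57 in OE1. Of them 8 lay lower after treatment without overlap in ZH11, against 18.4% of all genes, and 9 in OE1, against 28.6% of all genes. None was called. The 105 peroxidases had medians of -0.14 and -0.08. Of these, 2 were called higher in ZH11 and 1 in OE1, where 0.174% and 0.127% of all genes were, and none was called lower. Upstream, the 50 genes of phenylalanine, tyrosine and tryptophan biosynthesis had medians of -0.05 and -0.09 with none called. The 34 dirigent proteins, which steer the coupling of monolignol radicals, had medians of -0.25 and -0.20. Of these, 1 rose in OE1, where 0.127% of all genes did. For the other families only median deviations from the untreated ZH11 mean are given. The 2 UDP-glycosyltransferases were at 0.26 and -0.26 in untreated ZH11 and at 0.93 and 1.58 in treated ZH11. In OE1 they were at 0.48 and 0.53 untreated and at 1.10 and 0.95 treated. The 10 BAHD acyltransferases were at -0.19 and -0.20 in treated ZH11, and in OE1 at 0.05 and -0.0003 untreated and 0.02 and -0.15 treated.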

How the data were processed

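Gene expression was taken from the TPM matrix deposited by the authors, with 57403 genes. For the genes the authors called, their deposited tables gave a log2 fold change and an adjusted p-value. The deposited trimming table gave each count of reads and bases and each percent of GC, per the file headers. Cufflinks 2.2.1 is listed in the submitters' processing notes, without its use. The aligner, counter, counting strand and genome build are not given in the sources used here. Chromosomes were read from locus identifiers.

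The level filter of 1 TPM in 2 or more libraries left 25281 genes. Limma 3.58.1 (R 4.3.3) was fitted to log2(TPM + 1) as 4 group means with an eBayes trend, and 5 contrasts were taken. The code was tested on simulated data. Counts per gene were not used, so no count test was run, and TPM give no counting interval. Python 3.11.15, pandas 2.3.3, numpy 2.4.6 and matplotlib 3.10.9 were used for tables and plots. Chance tests of a list were not made. With 2 libraries against 2, lists are described by counts and medians beside those of all genes.

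Named genes were those called in any comparison, the 4 most abundant of the early, lignin, flavonoid and laccase steps, the 2 most abundant glycosidases, and the 3 largest folds per comparison with at least 5 TPM in the higher group. All others named in the text were picked after their values were seen. One lignin gene named by this rule is counted but not reported here. The members, lists and rules were chosen with earlier results of these data known. Alternatives covered scaling, pseudocounts of 0.1 and 5, filters, the libraries entering the fit, a replicate block, the length gradient and read length. Files of alignment, raw-read and annotation statistics were not used.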

Additional observations from a re-analysis of the deposited data

How the results depend on the processing

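No called value changed sign under any alternative run. Calls in ZH11 after treatment (3 higher) came to 1 with no level filter, 1 with the replicate block, 0 with only the 4 compared libraries and 5 with the length gradient removed. In OE1 (1 higher and 1 lower) they came to 2 and 2 with median-of-ratios scaling, with the length gradient removed and with a read-length term, to 4 and 3 with only the 4 libraries, and to 0 higher with no filter and with the replicate block. For treated OE1 against treated ZH11 (1 higher and 4 lower), the higher call went to 0 with pseudocounts of 0.1 and 5, no filter, a filter of 5 TPM, the replicate block, only the 4 libraries, the length gradient removed and the read-length term. The 4 lower calls went to 2 with median-of-ratios scaling, a pseudocount of 5 and the length gradient removed, to 1 with no filter and the replicate block, and to 0 with only the 4 libraries. The cause of these shifts was not tested.

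Leaving out 1 library at a time gave 0 to 9 higher and 0 to 4 lower calls in ZH11, 0 to 3 and 0 to 3 in OE1, 0 to 4 and 0 to 11 for treated OE1 against treated ZH11, and 0 to 2 and 0 to 11 for the difference of the effects. The highest were without treated ZH11 replicate 1, apart from the OE1 lower calls, which reached 3 without replicate 2. Without treated ZH11 replicate 1 the calls over all genes rose as well, to 5.07% higher and 5.35% lower in ZH11 (1282 and 1353 genes), to 0.831% and 0.518% in OE1, to 8.28% and 6.97% for treated OE1 against treated ZH11 (2093 and 1761 genes) and to 5.28% and 5.43% for the difference of the effects. A lone library is then assumed to vary like the other groups.

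Whether replicate numbers pair the samples was not settled, as a correlation over genes cannot show it. Differences between the replicates of a group had correlations from -0.28 to 0.23 between groups, highest for untreated and treated ZH11. A replicate block with the numbers of OE1 swapped, chosen after the data were seen, was fitted for treated OE1 against treated ZH11. It left 0 higher and 4 lower calls, where 1.25% and 0.237% of all genes were called. With 2 libraries a group, exact permutation cannot give a small p, and members near 1 TPM rest on few reads.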
